A study of Mus musculus with 4 samples.

Results

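The 9 genes described here encode the 3 TGF-beta ligands (Tgfb1, Tgfb2, Tgfb3), 3 latent TGF-beta binding proteins (Ltbp1, Ltbp2, Ltbp4), the type II receptor (Tgfbr2) and 2 matrix proteins that TGF-beta induces (Tgfbi and Thbs1). They were taken by symbol from the 31054 features of the single-cell matrices, and each symbol matched 1 feature. Lungs were profiled by single-cell RNA sequencing in 4 libraries from male C57BL/6 mice that were 19 months old when treatment began. Mice of 1 group received BPTES, a small-molecule inhibitor of the glutaminase GLS1, and mice of the other received the vehicle DMSO, each for 1 month, so that both groups were aged and handled with solvent. Each group had 2 libraries, and for each library 20000 CD45- and 9000 CD45+ sorted cells of a lung digest were mixed, which fixes the balance of immune and other cells. The labels do not say whether a library held 1 mouse or a pool, so p-values measure the spread between libraries only.

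TGF-beta is secreted as a latent complex, in which its propeptide keeps the mature growth factor from its receptors. Latent TGF-beta binding proteins tether that complex to the fibrillin and elastin matrix. Integrins or thrombospondin 1 (the product of Thbs1) can release the growth factor, which then binds the type II receptor. The type II receptor recruits and phosphorylates the type I receptor, and Smad2 and Smad3 carry the signal to the nucleus. In the lung the pathway is best known for matrix production by fibroblasts and for fibrosis, and it also restrains immune cells.

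The 4 libraries kept 15142 and 15486 cells with BPTES and 14407 and 18860 with DMSO, after barcodes of low content and probable doublets were removed, with 14046 to 15923 UMIs (counted RNA molecules) per cell at the median. Clusters of cells were named from marker genes, and a class name ends in "-like" because it rests on RNA markers alone. Of 63895 cells, 12114 (19.0%) lay in 7 unnamed clusters. Among these, cluster 5 held 2942 cells led by Adh7 and Itgbl1, whose marker score for adventitial fibroblasts was too close to that for alveolar fibroblasts to choose a name. Levels are UMIs per 1000000 UMIs (CPM) of all cells of a class in a library, given for the 21 named classes that no library represents by fewer than 20 cells. Libraries shared 75 to 121 cell barcodes with each other, of at least 16440. Xist ranged from 0.0878 to 0.131 CPM and Ddx3y, a gene of the Y chromosome, from 156 to 203.

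None of the 9 genes was among the marker genes, but cells were clustered on variable genes of the same matrices, so levels between classes are descriptions without tests. The promoters of Tgfbi and Ltbp2 are printed because both genes had sharply unequal levels among classes and Tgfbi is a classical TGF-beta-induced gene. Each runs from 250 bases before to 50 bases after the RefSeq gene start, read in the gene's direction. Capitals mark CAGAC or its reverse complement GTCTG, the core of the Smad-binding element.
Tgfbi: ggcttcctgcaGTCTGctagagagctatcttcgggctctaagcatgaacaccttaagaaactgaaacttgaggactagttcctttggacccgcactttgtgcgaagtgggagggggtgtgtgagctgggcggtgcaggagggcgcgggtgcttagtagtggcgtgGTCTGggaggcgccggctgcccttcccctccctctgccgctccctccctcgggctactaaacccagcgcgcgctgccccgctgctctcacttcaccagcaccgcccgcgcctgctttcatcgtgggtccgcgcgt
Ltbp2: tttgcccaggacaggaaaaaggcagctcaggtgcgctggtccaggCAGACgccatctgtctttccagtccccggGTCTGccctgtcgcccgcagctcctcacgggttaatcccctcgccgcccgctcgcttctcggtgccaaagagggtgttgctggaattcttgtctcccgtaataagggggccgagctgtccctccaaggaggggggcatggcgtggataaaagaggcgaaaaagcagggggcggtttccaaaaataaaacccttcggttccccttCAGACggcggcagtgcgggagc

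The Tgfbi window is chr13:56609336-56609635 on the plus strand and the Ltbp2 window chr12:84876442-84876741 on the minus strand (GRCm38.p6). They hold 2 and 3 matches. At least 1 match occurs in 49.6% of 32851 RefSeq promoter windows of this length, at least 2 in 16.2% and at least 3 in 3.90%, so that matches are common and describe letters only. The Tgfb1 window held 0 matches, that of Tgfb2 held 2 and that of Tgfbr2 held 1. The alternative windows of Ltbp1 held 1 and 2, and those of Ltbp4 held 0 each. No window was available for Tgfb3 or Thbs1. In GENCODE release M21 (GRCm38), the genes range from 15.3 kb (Thbs1, chr2:118111876-118127133, 22 exons) to 387 kb (Ltbp1, chr17:75005568-75392512, 30 exons).

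Tgfb1 (ENSMUSG00000002603), the ligand of leukocytes and platelets, was highest among the 21 classes in classical monocyte-like cells, with 384 and 382 CPM under BPTES and 418 and 427 under DMSO (mean 403 ± 23.2 SD, n = 4). Non-classical monocyte-like cells followed with 363 ± 50.1 CPM (SD, n = 4), alveolar macrophage-like cells with 276 ± 27.1 (SD, n = 4) and interstitial macrophage-like cells with 266 ± 13.2 (SD, n = 4). Each of these overlapped its neighbour in the order over the 4 libraries. NK-like (252 CPM) and B-like cells (207 CPM) stood above T-like cells (112 CPM), and lymphatic endothelial-like cells (171 CPM) above the other endothelial classes. Fibroblast classes had between 15.03 and 17.2 CPM and ciliated-like cells 2.61 CPM. Of all Tgfb1 UMIs of a library, the myeloid classes contributed 47.2% on average (range 40.4% to 52.4%), and they were 13.9% of cells. Shares of UMIs also depend on the UMIs per cell. In BPTES replicate 1 the medians of myeloid classes ran from 8733.5 (neutrophil-like) to 39203.5 (alveolar macrophage-like), beside 12321 in general capillary endothelial-like cells. Fibroblast classes contributed 3.24% (range 2.81% to 3.96%).

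Tgfb2 (ENSMUSG00000039239) was highest in the pericyte-like cluster, with 274 and 403 CPM with BPTES and 228 and 312 with DMSO (mean 304 ± 74.5 SD, n = 4), above every library of the next class. Lymphatic endothelial-like (157 CPM), AT1-like (149 CPM), peribronchial fibroblast-like (135 CPM) and venous endothelial-like cells (112 CPM) overlapped each other in this order. Capillary endothelium had little, with 6.72 CPM in general capillary endothelial-like cells, below the venous and lymphatic classes. On average, alveolar fibroblast-like cells gave 23.4% of the Tgfb2 UMIs (range 16.2% to 27.3%), unnamed cluster 5 17.4% (range 11.8% to 22.4%), venous endothelial-like cells 11.4% (range 7.29% to 13.1%) and the pericyte-like cluster 11.2% (range 4.65% to 16.6%). In BPTES replicate 2 the pericyte-like share was above the alveolar fibroblast-like one. Mesothelial-like cells gave 22.2% in DMSO replicate 1, which held 218 of their 299 cells, and at most 0.573% in the other libraries. Classical monocyte-like cells, the highest for Tgfb1, had the lowest mean for Tgfb2 at 0.425 ± 0.230 CPM (SD, n = 4). Their libraries overlapped those of the next class, neutrophil-like cells (0.788 ± 0.765 CPM, SD, n = 4).

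Tgfb3 (ENSMUSG00000021253) was highest, among the 21 classes, in fibroblast classes. Peribronchial fibroblast-like cells, which surround airways, had 111 and 125 CPM with BPTES and 149 and 135 with DMSO (mean 130 ± 16.4 SD, n = 4). Adventitial fibroblast-like cells had 82.6 ± 11.7 CPM (SD, n = 4), lymphatic endothelial-like cells 64.03 ± 5.09 (SD, n = 4) and the pericyte-like cluster 51.1 ± 20.9 (SD, n = 4). Alveolar fibroblast-like cells, the commonest mesenchymal class, had 16.9 ± 4.15 CPM (SD, n = 4), below every library of those 4 classes. Unnamed cluster 5 had 95.9 ± 10.7 CPM (SD, n = 4) and held the largest share of Tgfb3 UMIs, 35.8% on average (range 26.3% to 44.9%). Mesothelial-like cells gave 16.4% of Tgfb3 UMIs in DMSO replicate 1, which held most of these cells, and at most 1.12% in the other libraries.

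**Figure D1:**
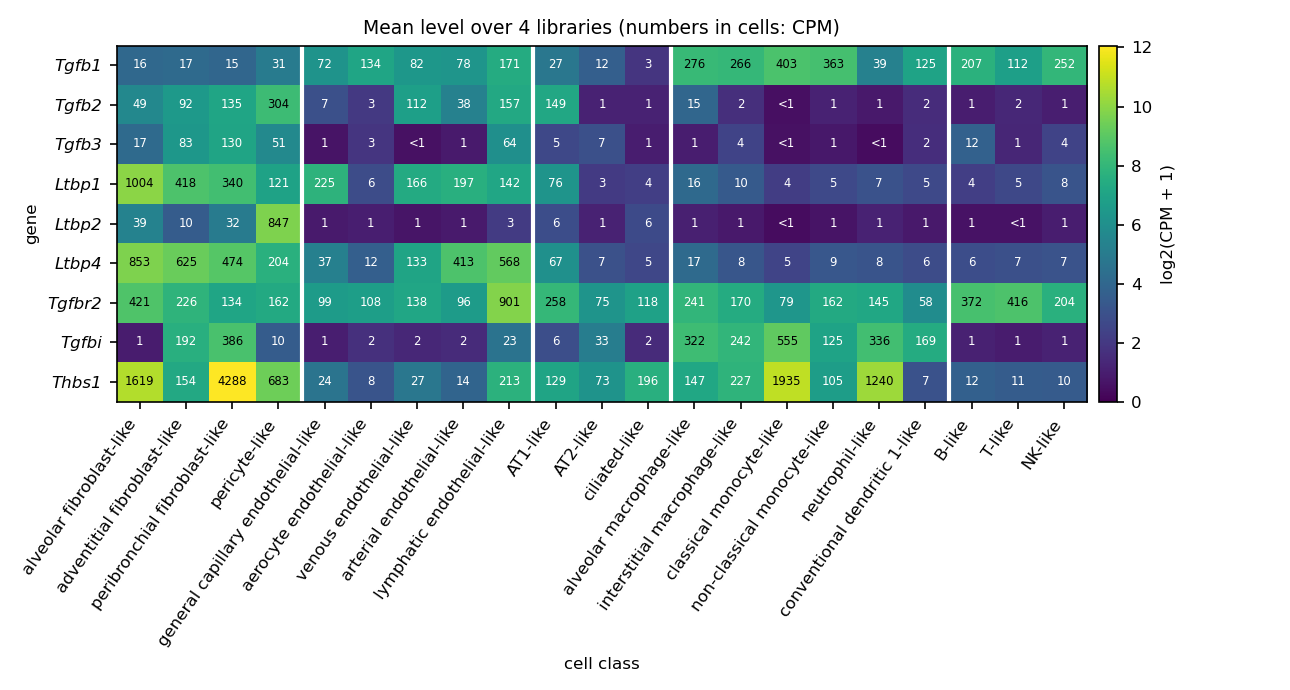
Mean CPM over 4 libraries of the 9 genes (rows) in 21 cell classes (columns), with colour as log2 of CPM plus 1. Numbers in the cells are CPM rounded to whole numbers, with <1 for the lowest values. Tgfb1 is bright in monocyte-like and macrophage-like columns (403 CPM in classical monocyte-like cells) where Tgfb2, Tgfb3 and the Ltbp genes are dark, and Ltbp2 is bright in 1 column (847 CPM, pericyte-like).

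Ltbp1 (ENSMUSG00000001870) was highest among named classes in alveolar fibroblast-like cells, with 1071 and 1131 CPM with BPTES and 769 and 1044 with DMSO (mean 1004 ± 160 SD, n = 4). Unnamed cluster 26, of 625 cells with few UMIs each, was higher still at 1761 ± 386 CPM (SD, n = 4). Every alveolar fibroblast-like library stood above every adventitial fibroblast-like library (418 ± 86.8 CPM, SD, n = 4). Endothelial classes also had Ltbp1, with 225 ± 9.64 CPM (SD, n = 4) in general capillary endothelial-like cells, but aerocyte endothelial-like cells, the large thin capillary cells of gas exchange, had 5.92 CPM. The 2 clusters that made up the general capillary class were close, at 230 ± 9.19 and 218 ± 13.3 CPM (SD, n = 4 each).

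Ltbp4 (ENSMUSG00000040488), whose product is needed for elastic fibre assembly, was high in the same fibroblast classes and differed in the endothelial ones. It reached 862 and 871 CPM with BPTES and 853 and 827 with DMSO in alveolar fibroblast-like cells (mean 853 ± 18.8 SD, n = 4). Lymphatic endothelial-like (568 ± 5.89 CPM, SD, n = 4) and arterial endothelial-like cells (413 ± 21.0 CPM, SD, n = 4) were high, and general capillary endothelial-like cells had 37.0 ± 1.54 CPM (SD, n = 4). Fibroblast classes supplied 64.5% of Ltbp1 UMIs (range 63.5% to 65.1%) and 66.1% of Ltbp4 UMIs (range 62.3% to 70.7%), against 17.2% of cells. UMIs per cell enter these shares as well, with a median of 21528 in alveolar fibroblast-like cells of BPTES replicate 1.

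Ltbp2 (ENSMUSG00000002020), a family member whose product associates with fibrillin but does not bind latent TGF-beta, was above all a gene of the pericyte-like cluster among named classes. That cluster had 1050 and 755 CPM with BPTES and 764 and 820 with DMSO (mean 847 ± 139 SD, n = 4). The next class, alveolar fibroblast-like cells, had 39.2 ± 20.4 CPM (SD, n = 4), and unnamed cluster 5 had 76.9 ± 27.8 (SD, n = 4). The pericyte-like cluster gave 41.1% of all Ltbp2 UMIs (range 32.0% to 50.5%).

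**Figure D2:**
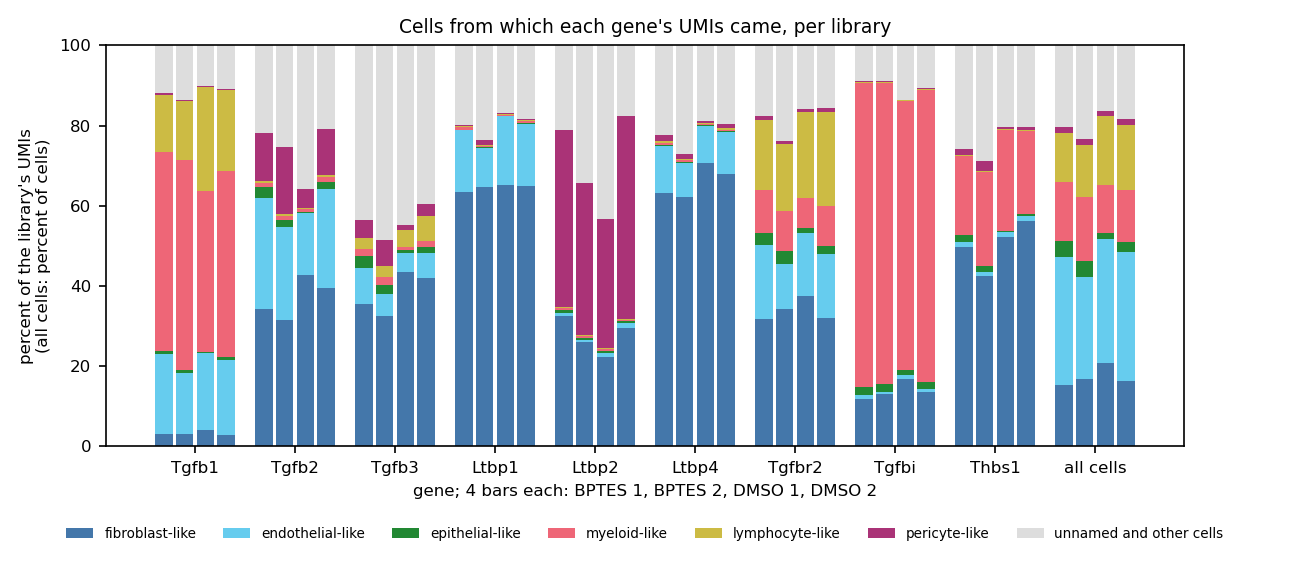
Percent of each gene's UMIs that came from each compartment, with 1 bar per library (BPTES 1, BPTES 2, DMSO 1, DMSO 2), and the percent of cells at the right. Myeloid-like cells gave 47.2% of Tgfb1 and 72.7% of Tgfbi UMIs on average, and fibroblast-like cells 64.5% of Ltbp1 and 66.1% of Ltbp4 UMIs.

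The pericyte-like cluster held smooth muscle cells as well, and these differed in the genes studied. At clustering resolution 2 it split into a pericyte-like cluster (543 cells) and a smooth muscle-like cluster (329 cells). Thbs1 was 10.7 and 17.3 CPM with BPTES and 24.9 and 14.8 with DMSO in the former, against 987 and 2550 with BPTES and 1151 and 1260 with DMSO in the latter. Ltbp1 was 12.8 ± 5.84 CPM against 255 ± 176 (SD, n = 4 each) and Tgfb3 12.5 ± 0.187 against 96.2 ± 39.3 (SD, n = 4 each). Ltbp2 was higher on the pericyte-like side, with 1071 ± 109 against 555 ± 337 CPM (SD, n = 4 each), though 1 smooth muscle-like library reached 1039 CPM. Ltbp4 was 115 ± 11.7 CPM against 305 ± 48.0 (SD, n = 4 each), with every smooth muscle-like library higher. Tgfb2 did not separate them, at 284 ± 46.8 and 332 ± 121 CPM (SD, n = 4 each), with overlapping libraries.

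**Figure D3:**
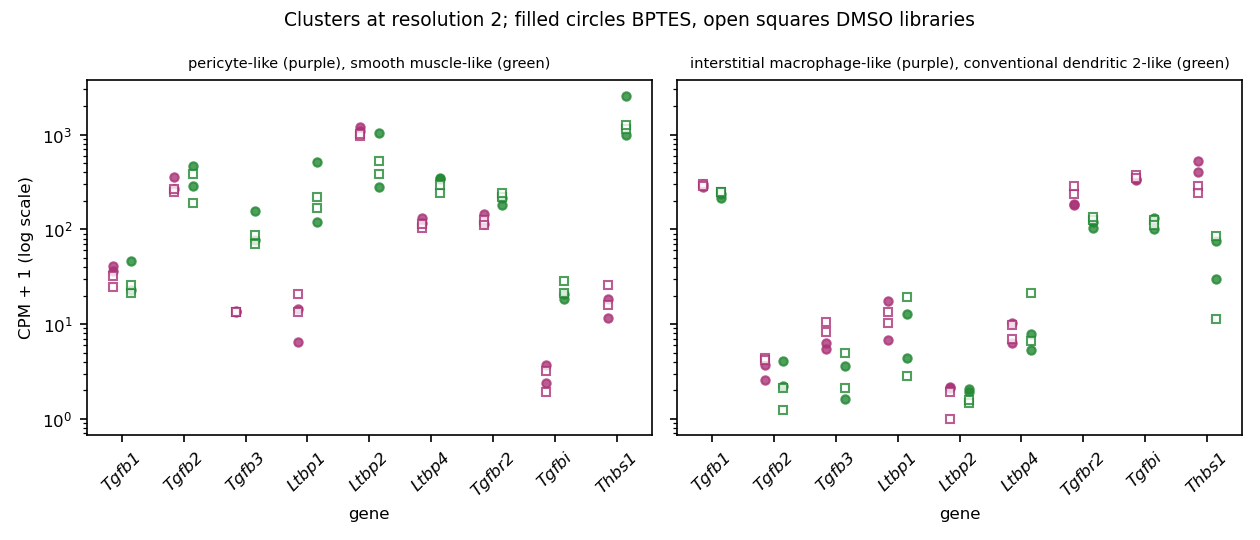
CPM plus 1 (log axis) of the 9 genes in each library for 2 clusters that split at resolution 2, at left pericyte-like against smooth muscle-like and at right interstitial macrophage-like against conventional dendritic 2-like. Thbs1, Ltbp1, Ltbp4, Tgfb3 and Tgfbi separate the mural pair in every library (Thbs1 16.9 against 1487 CPM on average), and Thbs1 and Tgfbi the macrophage pair.

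Tgfbr2 (ENSMUSG00000032440), the receptor that binds the ligands, was present in every class. Lymphatic endothelial-like cells had the highest level, 942 and 827 CPM with BPTES and 932 and 904 with DMSO (mean 901 ± 52.1 SD, n = 4), above every library of every other named class. Alveolar fibroblast-like (421 ± 40.03 CPM), T-like (416 ± 17.1 CPM) and B-like cells (372 ± 14.1 CPM, SD, n = 4 each) followed. The lowest class, conventional dendritic 1-like cells, still had 57.8 ± 5.26 CPM (SD, n = 4). Lymphatic endothelial-like cells were also among the 3 highest classes for Tgfb2, Tgfb3 and Ltbp4.

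Tgfbi (ENSMUSG00000035493), which encodes a secreted matrix protein, was a gene of myeloid cells and of some fibroblasts. Classical monocyte-like cells had 465 and 519 CPM with BPTES and 664 and 571 with DMSO (mean 555 ± 84.7 SD, n = 4). Peribronchial fibroblast-like (386 ± 26.1 CPM), neutrophil-like (336 ± 44.1 CPM), alveolar macrophage-like (322 ± 67.2 CPM) and interstitial macrophage-like cells (242 ± 18.3 CPM, SD, n = 4 each) followed, each overlapping its neighbour. Alveolar fibroblast-like cells, rich in Tgfbr2 and Thbs1, had 0.872 ± 0.171 CPM of Tgfbi (SD, n = 4), at the bottom of the 21 classes with T-like cells (0.880 ± 0.210, SD, n = 4), whose libraries overlapped theirs. Adventitial fibroblast-like cells had 192 ± 28.2 CPM (SD, n = 4). Myeloid classes gave 72.7% of Tgfbi UMIs (range 67.1% to 75.9%).

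Thbs1 (ENSMUSG00000040152), which encodes the activator thrombospondin 1, was highest in peribronchial fibroblast-like cells, with 4029 and 4540 CPM with BPTES and 3958 and 4625 with DMSO (mean 4288 ± 343 SD, n = 4). Classical monocyte-like (1935 ± 255 CPM), alveolar fibroblast-like (1619 ± 274 CPM) and neutrophil-like cells (1240 ± 259 CPM, SD, n = 4 each) followed, each overlapping its neighbour in the order, while every classical monocyte-like library was above every neutrophil-like one. Alveolar fibroblast-like cells were not uniform. At resolution 2, a cluster of 3629 such cells had 2358 ± 384 CPM of Thbs1 and 76.1 ± 31.0 of Ltbp2, and a cluster of 3028 had 797 ± 269 and 12.8 ± 5.74 (SD, n = 4 each). Platelet-like cells, 78 in all and too few for the comparison, had a mean of 3851 CPM of Thbs1 and 674 of Tgfb1. Alveolar fibroblast-like cells gave 41.7% of Thbs1 UMIs (range 33.1% to 48%), unnamed cluster 5 17.9% (range 11.7% to 23.6%), classical monocyte-like cells 16.1% (range 13.3% to 18.2%) and peribronchial fibroblast-like cells 7.57% (range 6.96% to 8.49%).

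Across the 21 classes, the class means of Ltbp1 and Ltbp4 followed each other most closely among the 9 genes, with a Pearson r of 0.95 on the log2(CPM + 1) scale, and those of Tgfb2 and Ltbp4 with 0.90. The classes share libraries and ambient RNA, so these values describe patterns only. Among all genes that reached 20 CPM in a class, the pattern of Ltbp1 was most like that of Eln, elastin (r = 0.973, 21 classes), and that of Ltbp4 like those of Fbn1, fibrillin 1 (0.976), Eln (0.964) and Thsd7a (0.956). Tgfb2 was most like Ctgf (0.929), the file's symbol for the TGF-beta-induced gene Ccn2, followed by Eln and Zfpm2 (0.911 each). Ltbp2 was most like Ldb3 (0.969), Ppp1r14a (0.945) and Sdk2 (0.944). Tgfb3 was most like Clip3 (0.910), Abcc9 (0.903) and Enpp3 (0.902), and Ltbp1 after Eln like F830016B08Rik (0.957) and Snai2 (0.953). The closest patterns were looser for Tgfb1 (Ppp2r3c, 0.889, Ikbkb, 0.888, and Tmem229b, 0.887), Tgfbi (Gabarap, 0.842, Dgkg, 0.831, and Tlr2, 0.827) and Thbs1 (A530013C23Rik, 0.834, C1rl, 0.832, and Pde7b, 0.806). They were loosest for Tgfbr2 (Sec24a, 0.770, Maf, 0.765, and Edaradd, 0.764).

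A list of 41 further genes of the pathway placed the other steps, and those named in the next sentences were chosen after their values were seen. The activating integrin gene Itgb6 stood at 583 ± 63.5 CPM in AT1-like cells and at 15.8 ± 2.07 in the next class, ciliated-like cells (SD, n = 4 each). Itgb8 was low and highest in adventitial fibroblast-like cells (38.0 ± 6.04 CPM, SD, n = 4). Nrros, which tethers latent TGF-beta on myeloid cells, was highest in non-classical monocyte-like cells (612 ± 29.1 CPM), and Lrrc32, its relative, in arterial endothelial-like cells (77.2 ± 7.12 CPM, SD, n = 4 each). The endothelial receptors Acvrl1 and Eng peaked in aerocyte endothelial-like (1294 ± 35.3 CPM) and arterial endothelial-like cells (1525 ± 168 CPM, SD, n = 4 each). The inhibitory Smad genes Smad6 (895 ± 103 CPM) and Smad7 (443 ± 74.8 CPM, SD, n = 4 each) also peaked in arterial endothelial-like cells. Among induced genes, Fn1, fibronectin, was highest in classical monocyte-like (1576 ± 118 CPM) and alveolar fibroblast-like cells (1493 ± 164 CPM, SD, n = 4 each), and Col1a1, collagen I, in adventitial fibroblast-like cells (1332 ± 443 CPM, SD, n = 4).

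BPTES was compared with DMSO in the 18 classes that no library represents by fewer than 50 cells, by edgeR's quasi-likelihood test on summed UMIs, with Benjamini-Hochberg adjustment over all genes of a class and calls at an adjusted p under 0.05. Of 162 pairs of gene and class, 138 passed the filter on low counts and 24 did not. Of these, 4 were called (2.90%), 1 higher and 3 lower. Over all genes and the same classes, 0.117% of 225719 tests were called, 0.0319% higher and 0.0851% lower. An unadjusted p under 0.05 was found for 22.5% of the member pairs and for 12.1% of all tests. The members were chosen with earlier results of these data known, Thbs1 and Tgfbi differences among them. The gap between member shares and shares of all tests is thus no independent support. The median log2 difference over member pairs was 0.022, and over all tests -0.002. The counts changed when single libraries were left out: 7 pairs were called higher without BPTES replicate 1, 0 without BPTES replicate 2 and 5 without DMSO replicate 2. The share of all tests called moved too, to 1.6%, 0.492% and 1.25% in these fits and 0.353% without DMSO replicate 1. Each such fit has 1 library in an arm, which is assumed to vary like the other group. When probable doublets were kept, 0 of the member pairs were called in either direction, and of all tests 0.0417%. DESeq2 called 3 member pairs higher and 5 lower, and 1.05% of all tests. Fewer cells of a kind within a class and less RNA per cell cannot be told apart in such sums.

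The called genes were Thbs1 and Tgfbi only, and Thbs1 was called in opposite directions in different classes. In non-classical monocyte-like cells, Thbs1 had 64.2 and 73.7 CPM with BPTES and 135 and 149 with DMSO. Both BPTES libraries were below both DMSO libraries, a log2 difference of -1.03 (SE 0.0987, edgeR adjusted p = 0.0159). In this class, 0.0670% of 11948 genes were called lower. The share of cells with a Thbs1 UMI, after each cell was thinned to 3000 UMIs, was 8.94% and 8.22% with BPTES and 14.2% and 14.6% with DMSO (unthinned 20%, 19.8%, 24.2% and 31.3%), with 13620 to 15364.5 UMIs per cell at the median. In B-like cells, which have little Thbs1, the thinned shares were 2.44%, 2.5%, 2.41% and 3.97%, with 11286.5 to 12252 UMIs at the median. Shallower cells, 8 to 30 per library in the former class and 35 to 207 in the latter, were left out of thinning.

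The 6 marker genes of classical monocytes, the myeloid class with most Thbs1, summed to 251 and 224 CPM with BPTES and 287 and 303 with DMSO in the non-classical monocyte-like cells, with 0 markers at 0. Of these 6, 2 were lower in both BPTES libraries than in both DMSO libraries and 0 higher, where 22.4% of all genes of the class were lower in this way. The part of such cells in the Thbs1 difference was not tested. The call was lost at a mitochondrial limit of 5% (log2 -0.90, adjusted p = 0.0580) and with doublets kept (-0.67, 0.0809).

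In neutrophil-like cells, Thbs1 had 1134 and 924 CPM with BPTES and 1435 and 1467 with DMSO, again without overlap, a log2 difference of -0.65 (SE 0.0949, edgeR adjusted p = 0.0461). Tgfbi had 305 and 291 CPM with BPTES and 374 and 374 with DMSO in these cells, a log2 difference of -0.48 (SE 0.0754, edgeR adjusted p = 0.0471). Among all 9436 genes of the class, 0.413% were called lower. The 6 neutrophil markers themselves summed to 80500 and 84100 CPM with BPTES and 108000 and 114000 with DMSO, 3 of 6 lower and 2 higher without overlap (10.9% and 39.2% of all genes of the class), and classical monocyte markers to 240 and 255 against 260 and 365. Their part in the differences was not tested. With doublets kept, neither Thbs1 nor Tgfbi was called in these cells. Thbs1 lost its call without BPTES replicate 2 (adjusted p = 0.0817), and Tgfbi in each fit that left out a library (adjusted p from 0.0577 to 0.179), with the replicate number as a block (0.0652) and without the 2 cells richest in Tgfbi per library (0.0552).

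Thbs1 was higher in AT2-like cells, whose normal counterparts secrete surfactant, with 88.0 and 92.7 CPM with BPTES and 49.3 and 61.3 with DMSO, a log2 difference of 0.74 (SE 0.109, edgeR adjusted p = 0.0305). In this class 0.153% of 13057 genes were called higher, and 16% were higher in both BPTES libraries than in both DMSO libraries. The 2 richest cells held 44.6% of the Thbs1 UMIs in DMSO replicate 1 and 11.4% to 15.3% in the other libraries. Without the 2 richest cells per library the log2 difference was 0.99 and no longer called (adjusted p = 0.0729). It was not called without BPTES replicate 1 (0.0557) or replicate 2 (0.116) either. The 6 alveolar fibroblast markers summed to 797 and 839 CPM with BPTES and 924 and 866 with DMSO, 5 of 6 lower without overlap (31.0% of all genes of the class). Ltbp1 (1.87 against 4.51 CPM) and Ltbp4 (4.69 against 9.47 CPM) were lower in both BPTES libraries without a call (adjusted p = 0.109 and 0.0828 by edgeR). In DMSO replicate 1, however, the 2 richest cells held 72.7% of the Ltbp1 UMIs and 73.2% of the Ltbp4 UMIs of this class. The part of fibroblast RNA in the Thbs1 difference was not tested.

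The Thbs1 difference of AT2-like cells was tested directly against those of 2 classes, non-classical monocyte-like and neutrophil-like cells, which were chosen after the data were seen because their calls had the opposite sign. It exceeded the difference in non-classical monocyte-like cells by 1.76 on the log2 scale (SE 0.130, edgeR adjusted p = 0.000328), where 0.423% of 13937 genes differed in this test. Against neutrophil-like cells, the log2 gap of 1.53 (SE 0.231) was not called (edgeR adjusted p = 0.129), and by this test 0 of 12935 genes were.

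**Figure D4:**
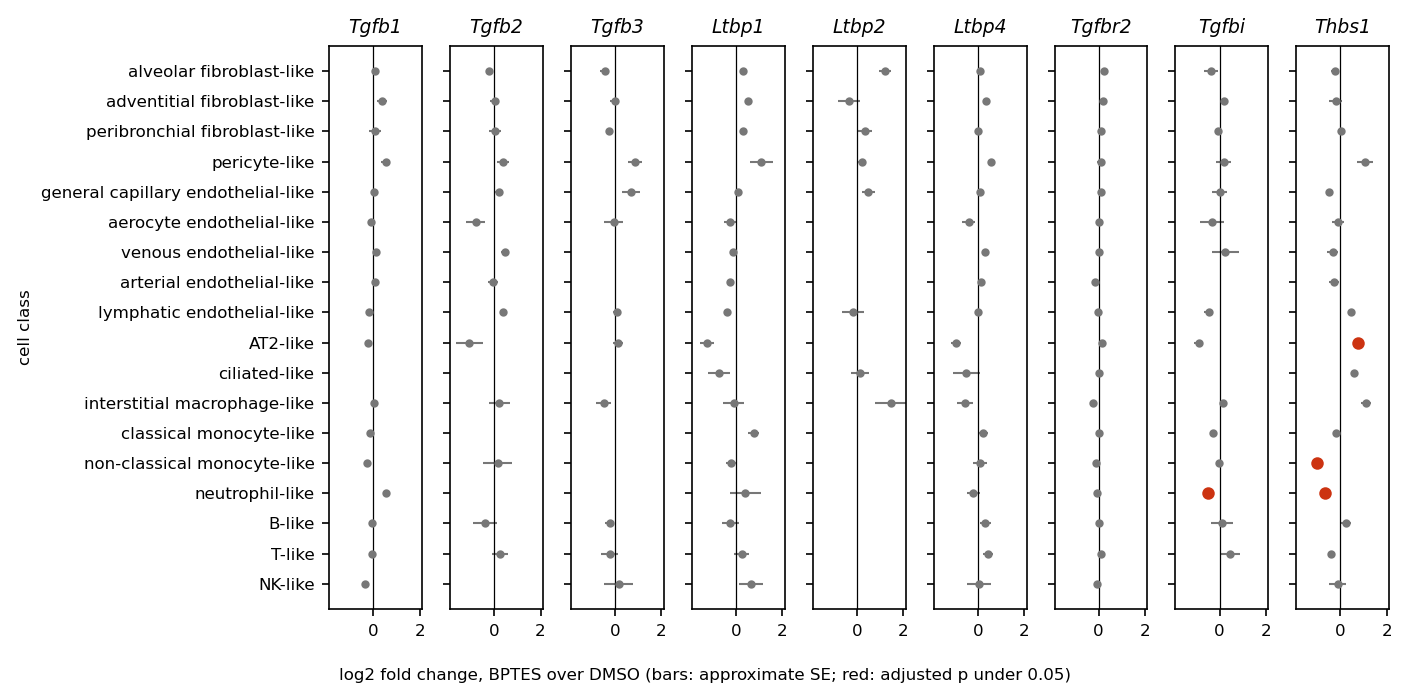
Log2 fold change of BPTES over DMSO (points) with its approximate standard error (bars) for the 9 genes in each of 18 cell classes in which a gene was tested. The 4 red points are the calls, Thbs1 lower in non-classical monocyte-like and neutrophil-like cells and higher in AT2-like cells, and Tgfbi lower in neutrophil-like cells, while Tgfbr2 stays between -0.24 and 0.21.

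Thbs1 was also above its DMSO libraries in interstitial macrophage-like cells, with 240 and 369 CPM against 133 and 167, a log2 difference of 1.08 that was not called (edgeR adjusted p = 0.147). Alternatives that called it include DESeq2 (adjusted p = 1.68e-05), the replicate number as a block (edgeR, 0.0279) and a mitochondrial limit of 5% (edgeR, 0.0432). These fits called 1.05%, 1.33% and 0.253% of all tests. With the replicate numbers crossed it was not called. The interstitial macrophage-like cluster held dendritic cells too. At resolution 2, interstitial macrophage-like cells alone had 402 and 521 CPM with BPTES and 286 and 243 with DMSO, and conventional dendritic 2-like cells 28.8 and 74.5 against 10.2 and 85.0. In the same macrophage-like class Fn1, a TGF-beta-induced gene, was the only one of the 41 further pathway genes called in any class. That is 1 call in 655 tests of gene and class, beside 0.117% of 225719 tests over all genes. Fn1 had 1087 and 1367 CPM with BPTES and 405 and 436 with DMSO, a log2 difference of 1.6 (SE 0.132, edgeR adjusted p = 0.0209), where 0.103% of 13586 genes of the class were called higher and 16.6% were higher without overlap. The 6 classical monocyte markers, of the class highest in Fn1, summed to 675 and 671 CPM with BPTES and 780 and 836 with DMSO there. The Fn1 call was lost without DMSO replicate 1 (adjusted p = 0.0579) or replicate 2 (0.0920) and with doublets kept (0.0961), and at resolution 0.5 no cluster had this name, so that Fn1 was not tested in it.

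Apart from Fn1, edgeR called no gene of the list in either direction. Over the whole list, DESeq2 called 8 tests higher and 4 lower, against its 1.05% of all tests. Among 10 induced genes, Fn1 included, 33 of 145 tests had an unadjusted p under 0.05, with a median log2 difference of 0.14. The 4 other receptors and co-receptors had 12 of 72 (median -0.07), the 13 other latency and activation genes 23 of 186 (0.03), the 3 Smad signal transducers 10 of 54 (0.07) and the 11 inhibitors 36 of 198 (-0.01), against 12.1% of all tests. Acta2, the actin of myofibroblasts and smooth muscle, named after its values were seen, had 55.2 CPM with BPTES and 18.9 with DMSO in alveolar fibroblast-like cells (log2 1.57, edgeR adjusted p = 0.0920), which is not a call.

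By edgeR with all 4 libraries, no ligand was called in any class. Alternatives called Tgfb2 in venous endothelial-like cells (replicate block, adjusted p = 0.00623, no filter, and without BPTES replicate 1), Tgfb2 in lymphatic endothelial-like cells (no filter, and without DMSO replicate 2), Tgfb1 in neutrophil-like cells (no filter), and Tgfb3 in alveolar fibroblast-like cells and the pericyte-like cluster (without BPTES replicate 1). Tgfb1 differed most in neutrophil-like cells, where it had 47.1 and 50.2 CPM with BPTES and 29.7 and 29.5 with DMSO (log2 0.56, SE 0.126, edgeR adjusted p = 0.0935). In this class 39.2% of all genes were higher without overlap, and the neutrophil markers summed to 80500 and 84100 CPM with BPTES and 108000 and 114000 with DMSO, whose part in the difference was not tested. In NK-like cells it had 213 and 228 CPM with BPTES and 296 and 269 with DMSO (log2 -0.35, edgeR adjusted p = 0.553), where 19.4% of genes were lower without overlap. In its highest class, classical monocyte-like cells, both BPTES libraries (384 and 382 CPM) were below both DMSO libraries (418 and 427 CPM), as were 27.3% of all genes of the class (log2 -0.12, edgeR adjusted p = 0.429). Tgfb2 ranged on the log2 scale from -1.07 in AT2-like cells, where it had only 7 to 22 UMIs in a library, to 0.48 in venous endothelial-like cells, and Tgfb3 from -0.49 to 0.86.

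Latency genes were not called either by this test, and some were by alternatives. These include Ltbp2 in alveolar fibroblast-like cells at a mitochondrial limit of 5% (adjusted p = 0.0248) and without DMSO replicate 2 (0.00139), and Ltbp4 in AT2-like cells with the replicate block (0.0322). Ltbp1 had 484 and 499 CPM with BPTES and 321 and 370 with DMSO in adventitial fibroblast-like cells (log2 0.53, edgeR adjusted p = 0.25, DESeq2 adjusted p = 0.0106), and 375 and 375 against 295 and 315 in peribronchial fibroblast-like cells (0.31, 0.455). Of all genes, 18.1% and 18.8% were higher without overlap in these classes. In lymphatic endothelial-like cells it was on the other side, with 130 and 113 against 167 and 157 (-0.40, 0.166), where 22.7% of genes were lower without overlap. Ltbp2 had 65.1 and 43.9 CPM with BPTES and 17.4 and 30.3 with DMSO in alveolar fibroblast-like cells (log2 1.21, SE 0.274, edgeR adjusted p = 0.120), where 22.3% of genes were higher without overlap. Unnamed cluster 5, which was not tested, had 96.9 and 105 CPM with BPTES and 54.7 and 51.3 with DMSO. Over all cells of a library Ltbp2 stood at 34.9 and 30.2 CPM with BPTES and 20.9 and 20.03 with DMSO, values that move with the mix of cells. Mesothelial-like cells gave 26.1% of Ltbp2 UMIs in DMSO replicate 1 and at most 0.0583% in the others, and the pericyte-like share ran from 32% to 50.5%. The part of this mix in the library values was not tested.

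In the pericyte-like cluster, Thbs1 (915 against 451 CPM, edgeR adjusted p = 0.665), Ltbp4 (243 against 166, 0.605) and Tgfb3 (65.3 against 36.8, 0.665) had higher means with BPTES and no call. Thbs1 ranged from 403 to 1223 CPM over the 4 libraries. Its log2 difference was 1.07 with all of them and 1.52 without BPTES replicate 1. With no filter on low counts Thbs1 was called (edgeR adjusted p = 0.0116), as were 2.65% of all tests. Ltbp1 had the largest log2 difference of the cluster, 1.10 (163 against 79.6 CPM, edgeR adjusted p = 0.737), with overlapping libraries. Without BPTES replicate 1 it was 1.72. Smooth muscle-like cells at resolution 2 had more of Thbs1, Ltbp4, Tgfb3 and Ltbp1 than pericyte-like cells. They numbered 120 and 90 with BPTES and 47 and 72 with DMSO, beside 111 and 132 and 119 and 181 pericyte-like cells. The part of this mixture in the differences was not tested. Tgfbr2, tested in all 18 classes, had log2 differences between -0.24 and 0.21 and a median of 0.02. In lymphatic endothelial-like cells, its highest class, the BPTES libraries (942 and 827 CPM) enclosed the DMSO libraries (932 and 904 CPM).

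**Figure D5:**
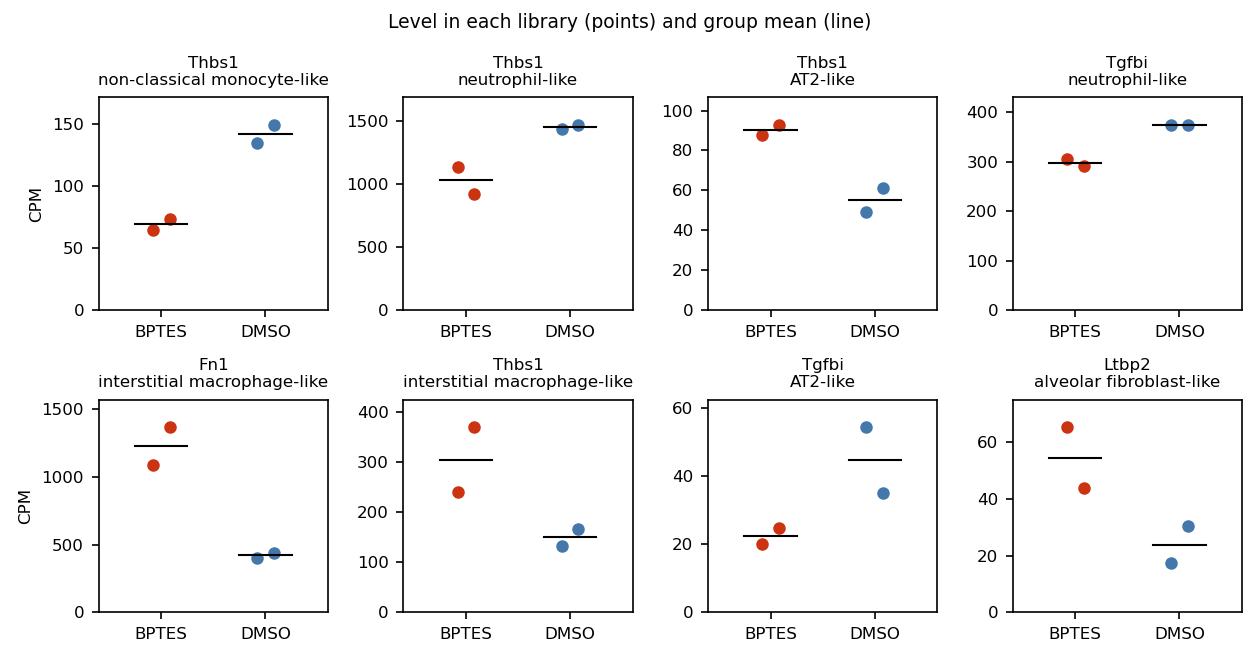
CPM in each library (points) with the group mean (line), axes from 0, for the 5 calls (top row and Fn1) and 3 pairs without a call. In each panel the 2 BPTES libraries lie apart from the 2 DMSO libraries, also where there was no call, as for Ltbp2 in alveolar fibroblast-like cells (65.1 and 43.9 against 17.4 and 30.3 CPM). Of all genes of these classes, 10.9% (neutrophil-like, lower) to 31% (AT2-like, lower) lie apart in the direction shown.

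Tgfbi was below its DMSO libraries in AT2-like cells too, with 19.97 and 24.7 CPM against 54.3 and 35.0 (log2 -0.90, SE 0.182), without a call (edgeR adjusted p = 0.0634). Of all genes of the class, 31% were lower without overlap. DESeq2 and the fit with the replicate number as a block called 1.05% and 1.33% of all tests. Tgfbi in AT2-like cells was among these calls (DESeq2 adjusted p = 0.00284, edgeR with the block 0.0051). In classical monocyte-like cells, its main source, it had 465 and 519 CPM with BPTES and 664 and 571 with DMSO (log2 -0.30, edgeR adjusted p = 0.220). Thbs1 in those cells had 1558 and 2005 CPM with BPTES and 2116 and 2060 with DMSO, and in peribronchial fibroblast-like cells, its highest class, the BPTES values lay within the DMSO range. Further pairs with an unadjusted p under 0.01 and no call were Thbs1 in ciliated-like (log2 0.59), lymphatic endothelial-like (0.45) and general capillary endothelial-like cells (-0.48), Ltbp4 in venous endothelial-like cells (0.30) and the pericyte-like cluster (0.58), and Ltbp1 in AT2-like cells (-1.23), 14 such pairs in all with those above. Thbs1 in general capillary endothelial-like cells was called by DESeq2 (adjusted p = 0.0335) and with the replicate number as a block (edgeR, 0.00762). In lymphatic endothelial-like cells Thbs1 was called with the replicate numbers crossed (edgeR adjusted p = 0.0279), where 0.681% of all tests were called.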

How the data were processed

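Single-cell 3' RNA libraries (Chromium GEM-X version 4) were made from lung, per the labels' protocols. The deposited values are raw UMI counts per gene and barcode, and the submitters' processing notes name Cell Ranger 8.0.1 and mm10. Barcodes with at least 500 genes, 1000 UMIs and at most 10% mitochondrial UMIs were kept, 4780 probable doublets were removed by comparison with simulated doublets (0.4% per 1000 barcodes), and 63895 cells were clustered (2000 variable genes, 40 components, 15 neighbours, Leiden resolution 1 in igraph 0.11.9). A cluster was named from 6 markers per class where its score reached 1.5 and led by 0.3, the latter set after the clusters were seen. Counts summed per library and class were tested with edgeR 4.0.16 (quasi-likelihood, TMM, filterByExpr), and the scripts were tested on simulated data. DESeq2 1.42.0, size factors, filters, doublets, resolutions, naming, a replicate block and left-out libraries were the alternatives. The SD is over libraries, and log2 differences are BPTES over DMSO. The members and gene lists were chosen with earlier results of these data known, which already showed the Thbs1 and Tgfbi differences in neutrophils and of Thbs1 in AT2 cells, so these are not independent support. Genes named are the 9 members, called list genes, and the 3 genes most like each member in class means, and others are marked as chosen after their values were seen.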

Additional observations from a re-analysis of the deposited data

Results flagged for a closer look

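The BPTES difference of Thbs1 had opposite signs in AT2-like and non-classical monocyte-like cells, and the gap between the 2 differences, 1.76 on the log2 scale (SE 0.130), passed edgeR's test of the difference itself (adjusted p = 0.000328). Both BPTES libraries were above both DMSO libraries in AT2-like cells and below both in non-classical monocyte-like cells. The test was chosen after the data were seen, because the calls had opposite signs. The same test against neutrophil-like cells gave a gap of 1.53 without a call (edgeR adjusted p = 0.129), and the AT2-like call itself was lost without BPTES replicate 1 (0.0557) or replicate 2 (0.116), without the 2 richest cells per library (0.0729) and with doublets kept (0.467). The non-classical monocyte-like call was lost at a mitochondrial limit of 5% (0.0580) and with doublets kept (0.0809).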

How the results depend on the processing

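The labels do not say whether replicate numbers pair the libraries, and same-numbered libraries deviated together weakly or not at all (correlations from -0.15 to 0.0777 over 18 classes). With the replicate number as a block, 3 member pairs were called higher and 5 lower, and 12 tests of the pathway list higher and 8 lower, while 1.33% of all tests were called, against 0.117% by edgeR without the block. With the numbers crossed, chosen after seeing the data, the counts were 3 and 5 for members and 6 and 6 for the list, and 0.681% for all tests.

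Against 1 member pair higher and 3 lower by edgeR, DESeq2 called 3 and 5, and a fit with no filter on low counts 9 and 9, with 1.05% and 2.65% of all tests called in these fits. Pairs called higher numbered 3 at a mitochondrial limit of 5% and 2 with clusters named by score alone. Keeping doublets left 0 pairs higher and 0 lower. Leaving out a library gave 0 to 7 higher and 2 to 4 lower, with 0.353% to 1.6% of all tests called. For the pathway list, with 1 higher and 0 lower, DESeq2 called 8 and 4, no filter 43 and 26, and leaving out a library 3 to 21 and 5 to 11. List tests called higher numbered 4 at a mitochondrial limit of 5%, 0 with doublets kept, 0 at resolution 0.5 and 2 by score alone, and those called lower 1 at a limit of 20%, 1 with doublets kept and 1 at resolution 2. Of all tests, 0.253% were called at the limit of 5%, 0.151% at 20% and 0.0417% with doublets kept. The share was 0.151% at resolution 0.5, 0.179% at resolution 2 and 0.134% by score alone. The cause of these shifts was not tested. Over alternatives, 223 of the single pair values that were scored kept direction and side of the threshold, 27 gained a call, 18 lost it, and 0 reversed. Not every member pair was scored in this way. Ltbp2 in adventitial fibroblast-like cells was outside this count. Its log2 difference was negative without a call by edgeR, and it was called higher with clusters named by score alone. Such naming gives each unnamed cluster the class of its highest score, so the 2 fits did not cover the same cells. The part of these added cells in the change of sign was not tested. Of the levels 3 and of the source shares 13 moved by more than the SD, among them the shares from alveolar fibroblast-like cells at a mitochondrial limit of 5% (Tgfb3 37.2%, Tgfb2 35.8%), and Ltbp2 in the pericyte-like cells at resolution 2 (1071 CPM). With 2 libraries a group, few differences can be resolved.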
